A study of Mus musculus with 20 samples.

Results

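Gdf11, S100a1, Tcf24, Spock2 and Trp53 are 5 genes that were picked by symbol because their RNA levels had differed in a like way between knockout and control islets in both Cpeb1 mouse lines of this study. They are 5 of the 55416 genes listed for the whole-body line and of the 16284 listed in both tables of the beta-cell line, and all 5 passed the filter on low counts in both lines. None lies on chromosome 7. Since the knockout-against-control values chose these genes, those values are given as a description and support nothing by themselves. What the choice did not use is tested: the difference between males and females, the neighbouring genes and the other genes of each pathway. The difference of the knockout effect between the sexes is tested too. It is built from the knockout-against-control values, so that test is not independent of the choice.

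CPEB1 is an RNA-binding protein that sets the poly(A) tail length and translation of its target mRNAs. RNA was sequenced after poly(A) selection from isolated islets of 20 C57BL/6J mice. In the whole-body line, 3 females and 3 males were Cpeb1 KO/KO and 3 females and 3 males were Cpeb1 +/+. In the beta-cell line, 2 females and 2 males were Cpeb1 flx/flx; Ins1-Cre/+ and 2 females and 2 males were Cpeb1 +/+; Ins1-Cre/+. All 8 mice of that line therefore carry the Ins1-Cre recombinase, which the insulin 1 gene drives in beta cells, and their islets also hold cells that do not express that gene. The knockout females of the whole-body line were 188, 165 and 98 days old and its control females 188, 188 and 109 days. Its knockout males were 155, 111 and 139 days old and its control males 123, 122 and 111 days. Knockout and control mice with the same number were of equal age in the beta-cell line: 108 and 107 days in females, 111 and 80 days in males. The whole-body line was batch 1 and the beta-cell line batch 2, so levels are not compared between lines.

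The 5 genes have separate roles. GDF11 is a secreted ligand of the TGF-beta superfamily that signals through activin receptors and SMAD2 and SMAD3, and it takes part in endocrine progenitor development in the embryonic pancreas. S100A1 is a small EF-hand calcium-binding protein that acts on ryanodine receptors and SERCA calcium pumps in muscle. TCF24 is a basic helix-loop-helix (bHLH) transcription factor of the tissue-specific class. SPOCK2, also called testican-2, is a secreted proteoglycan of the SPARC family. TRP53 is the mouse p53 tumour suppressor, a transcription factor that acts in DNA damage responses and is controlled mainly through protein stability.

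Positions are from the GENCODE M21 annotation of GRCm38, the assembly also called mm10. Gdf11 (ENSMUSG00000025352) lies on the minus strand at chr10:128882295-128891718, and S100a1 (ENSMUSG00000044080) on the minus strand at chr3:90511034-90514392. Tcf24 (ENSMUSG00000099032) lies on the minus strand at chr1:9960163-9967932. Spock2 (ENSMUSG00000058297) lies on the plus strand at chr10:60106219-60135198, and Trp53 (ENSMUSG00000059552) on the plus strand at chr11:69580359-69591873. Exon sequence of each gene, all transcripts merged, covered 4062 bases in Gdf11, 694 in S100a1, 4193 in Tcf24, 5533 in Spock2 and 4045 in Trp53. No member shares exon bases with another protein-coding gene. E330040D14Rik, an unverified transcript on the opposite strand, shares 619 exon bases with Tcf24, and without a stated strand setting reads of the pair cannot be told apart.

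RefSeq promoters on GRCm38.p6 were found for 4 of the 5 genes, Tcf24 being the exception. The start of S100a1 faces the start of S100a13, and the start of Trp53 faces the start of Wrap53, so each pair has 1 short stretch between its divergent starts. Both stretches are shown because the partner on the other side of each was measured in the same libraries and can be set beside the member. Capitals mark the bases between the 2 annotated starts, with 20 bases of flank on each side, 5′ to 3′ on the member's strand.
S100a1, chr3:90514373-90514454, minus strand: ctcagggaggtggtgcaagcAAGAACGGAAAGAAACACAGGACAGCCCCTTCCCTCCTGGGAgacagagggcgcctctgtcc
Trp53, chr11:69580236-69580378, plus strand: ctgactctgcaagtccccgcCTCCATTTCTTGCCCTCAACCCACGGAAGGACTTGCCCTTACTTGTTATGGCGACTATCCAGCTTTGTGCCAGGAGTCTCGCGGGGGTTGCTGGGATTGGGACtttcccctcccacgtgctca
The capitals span 42 bases for S100a1 and 103 bases for Trp53.

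The 250 bases before the start of Gdf11 are shown because their base composition stands at the end of the range of mouse promoters. Capitals mark GC boxes (GGGCGG on either strand, overlaps allowed) and a TATA box (TATAAA on either strand).
Gdf11, chr10:128891719-128891968, minus strand: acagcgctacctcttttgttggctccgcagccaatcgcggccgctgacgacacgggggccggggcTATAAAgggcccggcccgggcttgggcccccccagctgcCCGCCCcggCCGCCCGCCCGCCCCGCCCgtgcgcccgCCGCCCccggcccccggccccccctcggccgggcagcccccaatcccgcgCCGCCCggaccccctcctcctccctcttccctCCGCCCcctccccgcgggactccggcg
This stretch holds 8 GC boxes, and the whole window from 250 bases before to 50 after the start holds 9. GC made up 80.7% of the Gdf11 window, above 99.2% of the 32851 mouse promoters, against 61% for S100a1, 52.3% for Spock2 and 52.7% for Trp53. A GC box was present in 35.7% of all promoters and a TATA box in 13.6%. Of the 4 member windows only that of Gdf11 held a GC box. The TATA box letters were matched in those of Gdf11 and Trp53, at 185 and 248 bases before the start. The match of Trp53 was on the opposite strand. Whether either match acts as a TATA box was not tested.

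Libraries of the whole-body line held 41756830 to 112320368 counts, and those of the beta-cell line 40124922 to 101458838. The labels do not say whether islets of several mice were pooled. One whole-body library, control female 1, differed from the rest: Rn18s, a ribosomal RNA gene, took 60.5% of its counts and its TMM factor was 0.363, so only 43 counts of Gdf11 were read in it. Knockout male 1 of the beta-cell line had a summed level of 32.6 CPM for 4 Y-linked genes, here without TMM scaling, against 86.4 to 114 CPM in the other males of that line. Insulin transcripts marked all libraries as islets, with Ins2 between 92755 and 237914 CPM. Cpeb1, the targeted gene, was measured at 25.0 to 38.0 CPM in whole-body knockouts and 38.3 to 65.3 CPM in their controls. In the beta-cell line it was at 27.7 to 30.3 CPM in knockouts and 50.8 to 69.2 CPM in controls, again with no overlap. CPM are counts scaled to a common library size by TMM, with n = 3 mice per group in the whole-body line and n = 2 in the beta-cell line. In whole islets, fewer cells of a type and less RNA per cell cannot be told apart.

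Among the controls, Spock2 was the most abundant member per length of exon and Gdf11 the least. In the 6 whole-body controls Spock2 was at 102 ± 7.63 CPM per kb (mean ± SD), above 98.7% of tested genes. S100a1 followed at 46.9 ± 12.6 CPM per kb, above 97.0% of genes. Tcf24 was at 8.30 ± 3.71 and Trp53 at 5.92 ± 1.31 CPM per kb, and the ranges of these neighbours overlapped. Gdf11 was at 0.559 ± 0.107 CPM per kb, above 30.8% of genes. Over both sexes the order was the same in the 4 beta-cell controls, at 162 ± 31.8, 63.6 ± 6.19, 7.41 ± 5.29, 5.83 ± 1.01 and 0.431 ± 0.0662 CPM per kb. Tcf24 and Trp53 overlapped there too, and the order of their means depended on sex. In control females the mean of Trp53 was above that of Tcf24, though their ranges overlapped in both lines. The means were 5.18 ± 0.238 against 4.92 ± 0.314 CPM per kb in the whole-body line (n = 3). They were 6.63 ± 0.704 against 4.30 ± 2.69 in the beta-cell line (n = 2). In control males Tcf24 was above Trp53, at 11.7 ± 0.504 against 6.66 ± 1.60 and at 10.53 ± 6.16 against 5.04 ± 0.0337 CPM per kb.

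**Figure D1:**
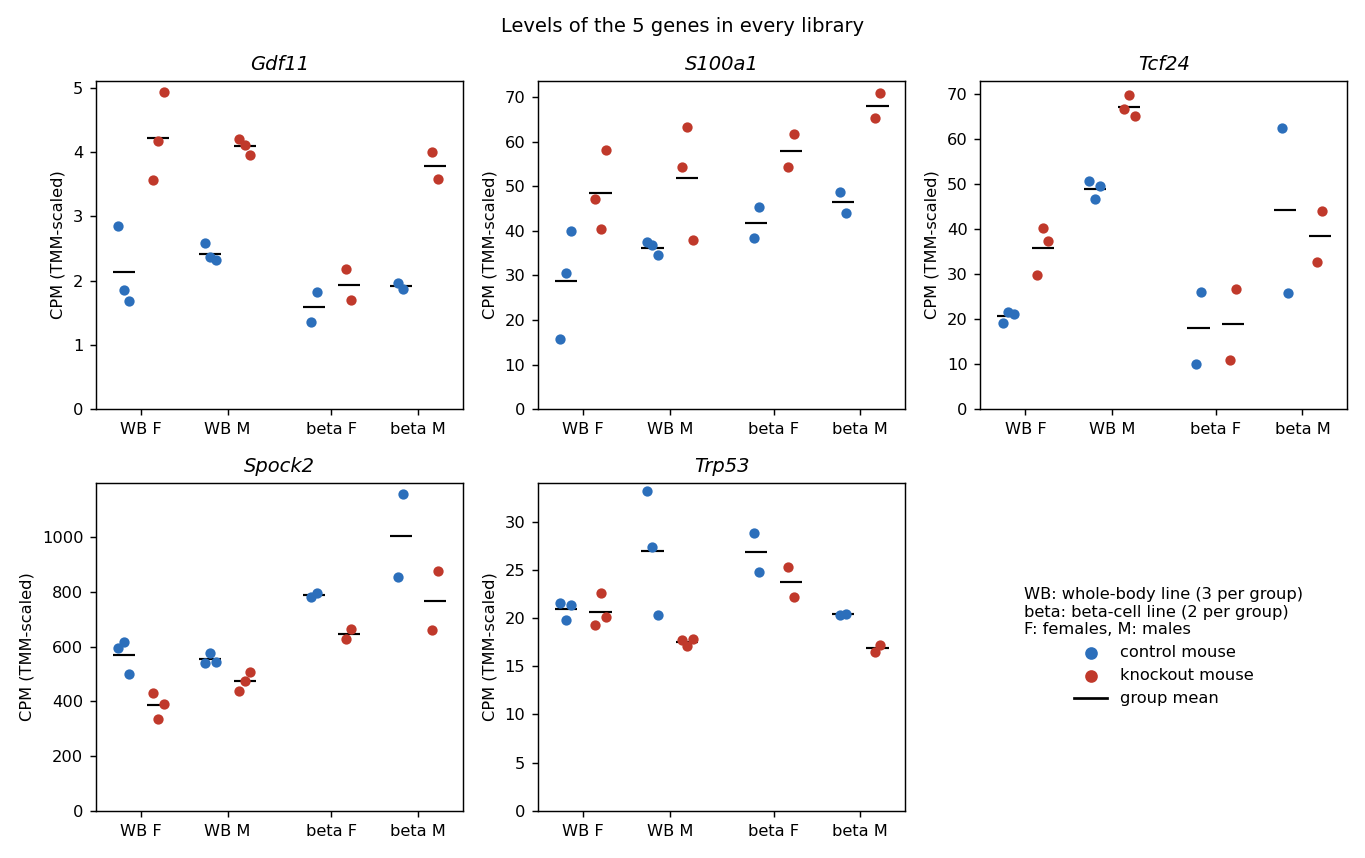
Level of each gene in every library in TMM-scaled CPM, females (F) and males (M) of the whole-body line (WB, 3 mice per group) and of the beta-cell line (beta, 2 mice per group); points are mice and black lines group means. S100a1 was higher in every knockout than in every control of the same sex and line, while Tcf24 was so only in the whole-body line.

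Gdf11, the TGF-beta family ligand, was higher in knockouts in the whole-body line and in beta-cell line males. Whole-body knockout females had 3.57, 4.17 and 4.92 CPM and control females 2.84, 1.86 and 1.68 CPM. Knockout males had 4.20, 4.11 and 3.95 CPM and control males 2.58, 2.36 and 2.32 CPM. Within each sex every whole-body knockout was above every control, a pattern of 130 of 18359 genes (0.708%). The mean difference of both sexes was 0.88 on the log2 scale (SE 0.149), 1.84-fold, with 1.01 (SE 0.212) in females and 0.76 (SE 0.209) in males. Without control female 1 the mean was 1.00.

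For Gdf11 in the beta-cell line, knockout males had 3.99 and 3.58 CPM and control males 1.96 and 1.87 CPM. These did not overlap, and their log2 difference was 0.98 (SE 0.285). The share of all genes without overlap in males of this line was not counted. Knockout females had 2.17 and 1.69 CPM and control females 1.36 and 1.82 CPM, which overlapped (0.28, SE 0.288). The female value was 0.08 without control female 1 and 0.50 without control female 2. Gdf11 rested on few reads in this line, with 92 to 139 counts in females and 125 to 301 in males. The test of the male minus female knockout effect gave 0.70 (SE 0.404, edgeR adjusted p = 1.00), so the sexes were not shown to differ.

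S100a1, the calcium-binding protein gene, was higher in knockouts of both sexes in both lines. Whole-body knockout females had 47.1, 40.4 and 58.2 CPM and control females 15.8, 30.6 and 39.9 CPM. Knockout males had 54.3, 63.4 and 38.0 CPM and control males 37.4, 36.7 and 34.7 CPM. The lowest knockout lay just above the highest control in each sex. The lowest value, 15.8 CPM, came from the library with 60.5% Rn18s. Over both sexes the log2 difference was 0.63 (SE 0.205), 1.55-fold, and 0.48 without that library.

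Beta-cell line levels of S100a1 were 54.2 and 61.7 CPM in knockout females and 38.4 and 45.3 CPM in control females. Knockout males had 65.2 and 70.9 CPM and control males 48.7 and 44.1 CPM. No knockout overlapped a control of its sex. The log2 difference was 0.51 (SE 0.0880), 1.43-fold, with 0.47 in females and 0.55 in males. S100a1 is the only member in which all knockouts were above all controls within each sex in both lines, a pattern of 17 of 16215 genes (0.105%).

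Tcf24, the bHLH factor gene, was higher in knockouts of the whole-body line. Knockout females had 29.7, 40.3 and 37.4 CPM and control females 19.2, 21.7 and 21.1 CPM. Knockout males had 66.5, 69.8 and 65.0 CPM and control males 50.7, 46.6 and 49.5 CPM. Groups did not overlap in either sex, and the log2 difference was 0.62 (SE 0.0806), 1.54-fold.

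The description of Tcf24 as a gene that moves alike in both lines did not hold in the beta-cell line. Knockout females had 10.95 and 26.8 CPM and control females 10.1 and 26.0 CPM. Knockout males had 32.7 and 44.0 CPM and control males 62.4 and 25.9 CPM. Knockouts and controls overlapped in both sexes, and the log2 difference was -0.06 (SE 0.482). Within groups the log2 SD of Tcf24 was 0.816 here against 0.131 in the whole-body line. Leaving out 1 library at a time moved the difference between -0.46, without knockout female 2, and 0.36, without control female 2.

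Spock2, the testican-2 gene, was lower in knockouts. Whole-body knockout females had 429, 337 and 391 CPM and control females 594, 616 and 498 CPM. Knockout males had 438, 475 and 508 CPM and control males 542, 576 and 544 CPM. Groups did not overlap within a sex. The log2 difference of both sexes was -0.39 (SE 0.0848), 0.761-fold, with -0.56 (SE 0.120) in females and -0.23 (SE 0.120) in males. With the level of acinar markers as a covariate these were -0.43 and -0.01.

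Beta-cell line levels of Spock2 were 626 and 666 CPM in knockout females and 780 and 797 CPM in control females, with no overlap. How many of all genes lack overlap in females of this line was not counted. Knockout males had 659.9 and 874 CPM and control males 853 and 1157 CPM, which overlapped. The log2 difference was -0.34 (SE 0.130), 0.790-fold. Leaving out control male 2 gave -0.22, and leaving out knockout male 2 gave -0.46. It was -0.25 without knockout male 1, the male with the low Y-linked level.

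Trp53, the p53 gene, was lower in knockouts in males of both lines. Whole-body knockout males had 17.7, 17.1 and 17.8 CPM and control males 33.2, 27.4 and 20.3 CPM, a log2 difference of -0.62 (SE 0.153), 0.650-fold. It was -0.44 without control male 1. Whole-body females did not separate: knockouts had 19.3, 22.6 and 20.2 CPM and controls 21.6, 19.8 and 21.4 CPM (-0.02, SE 0.153). The test of the male minus female knockout effect gave -0.60 (SE 0.216, unadjusted p = 0.0179, adjusted p = 0.355).

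Beta-cell line levels of Trp53 were 16.5 and 17.2 CPM in knockout males and 20.3 and 20.5 CPM in control males, with no overlap. As for Gdf11, the share of all genes with such a pattern in males was not counted. Knockout females had 25.3 and 22.2 CPM and control females 28.8 and 24.8 CPM, which overlapped. The log2 difference of both sexes was -0.22 (SE 0.0892), 0.856-fold, against -0.32 (SE 0.108) in the whole-body line.

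**Figure D2:**
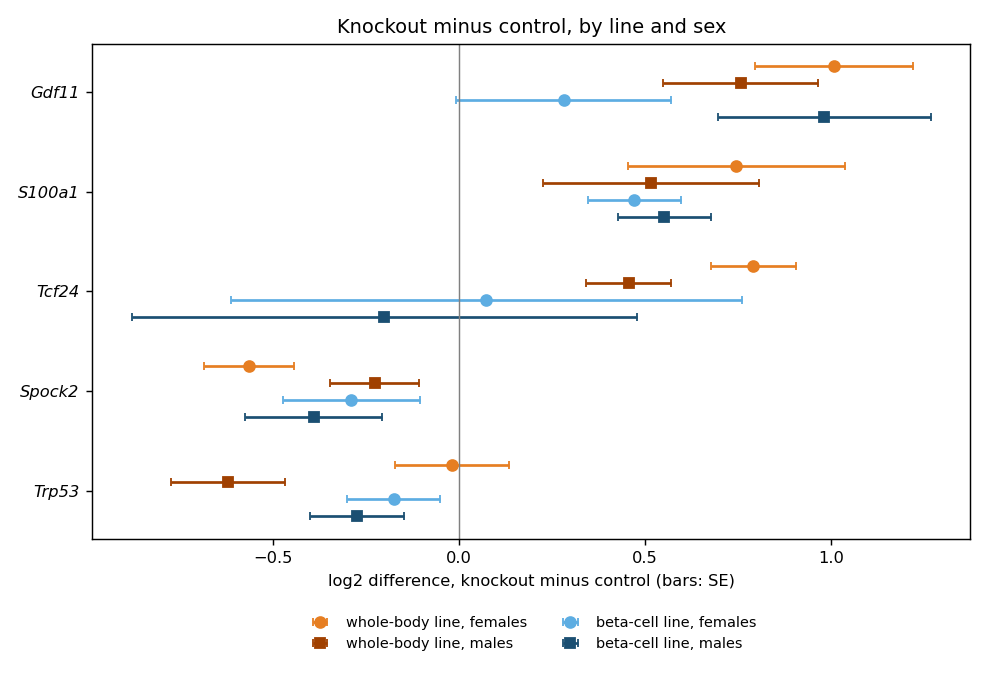
Log2 difference of knockout minus control for each gene, by line and sex, with bars for the standard error of the edgeR fit. Gdf11 and S100a1 lie above 0 and Spock2 below 0 in all 4 comparisons, Tcf24 lies near 0 in the beta-cell line, and Trp53 near 0 in whole-body females.

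Since same-numbered mice of the beta-cell line had the same age, each knockout can also be set beside the control of the same number. S100a1 was higher in the knockout of 4 of 4 pairs, by 0.42 to 0.68 on the log2 CPM scale. Spock2 was lower in 4 of 4 pairs, by -0.40 to -0.26, and Trp53 in 4 of 4 pairs, by -0.29 to -0.16. The levels of knockouts and controls still overlapped for Spock2 in males and for Trp53 in females, as given above. Gdf11 was higher in 3 of 4 pairs, from -0.10 to 1.02. The female pairs of Tcf24 differed little (0.12 and 0.04), while male pair 1 was at -0.93 and male pair 2 at 0.77. The share of all genes with such pair counts was not counted. As the members were picked on this contrast, nothing is read from their counts.

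**Figure D3:**
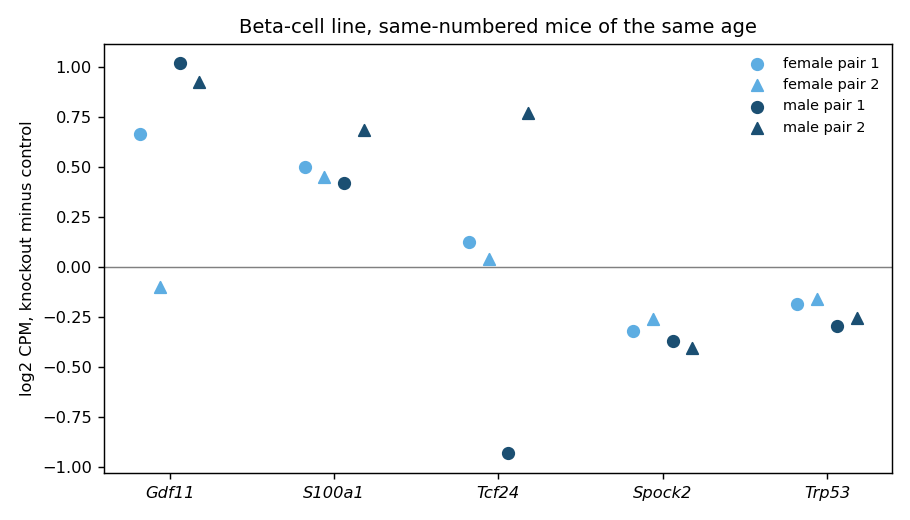
Log2 CPM of the knockout minus that of the same-numbered control of the same sex and age in the beta-cell line, 4 pairs per gene. All pairs of S100a1 lie above 0 and all pairs of Spock2 and Trp53 below it, whereas Tcf24 has male pairs on either side, at -0.93 and 0.77.

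Set against all genes, few of these differences were calls, that is, had a p of edgeR's quasi-likelihood test under 0.05 after Benjamini-Hochberg adjustment. In the whole-body line 6 of 18359 genes were called for the knockout (0.0327%), of which Tcf24 is the only member (adjusted p = 0.0348). The call was kept in 5 of 7 other ways of fitting and in 2 of 12 fits that each left out 1 library. Among the other ways it was lost with the acinar level as a covariate and with a block on replicate numbers. Those numbers were not taken as pairs in this line. Unadjusted, 1083 genes (5.9%) had a p under 0.05. For the beta-cell line the calls were 6 of 16284 genes (0.0368%) and no member by edgeR, and 594 genes (3.65%) had an unadjusted p under 0.05. S100a1 was called there by DESeq2 (adjusted p = 0.000900), which called 38 genes in that line. In the whole-body line Gdf11 was called by DESeq2 (adjusted p = 3.19e-07), by limma-voom (adjusted p = 0.0413) and by edgeR without control female 1 (adjusted p = 0.0210), and Spock2 by DESeq2 (adjusted p = 0.000882). DESeq2 called 197 genes in the whole-body line, and edgeR without 1 library called 2 to 11. The limma-voom total is not given here. All knockouts were above all controls within each sex in 130 genes (0.708%) of the whole-body line, Gdf11, S100a1 and Tcf24 among them, and below them in 58 (0.316%), with Spock2. The same counts of the beta-cell line were 501 (3.08%), with S100a1, and 461 (2.83%), with no member. Below in both lines stood 7 genes (0.0432%), again with no member. The members were selected on these contrasts, so nothing is read from their share or from their calls.

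Markers of acinar, endothelial, alpha, delta and PP cells were set beside the members, and edgeR called none of those tested for the knockout in either line. The 29 acinar markers summed to 628 to 9631 CPM in whole-body knockouts and 2601 to 56671 CPM in their controls, and 25 of the 28 tested were lower at an unadjusted p under 0.05, with a median log2 difference of -2.81. Sums in the beta-cell line were 5133 to 102420 CPM in knockouts and 27679 to 44954 CPM in controls, 27 of 29 markers had a positive difference, 0 of 29 had an unadjusted p under 0.05 in either direction, and the median was 0.55, so the knockouts of that line lay on both sides of the controls. Amy2a5 was read in every library, and Prss1 was at 0 in 4 whole-body libraries. The 12 endothelial markers had medians of 0.25 (whole-body) and -0.31 (beta-cell). All 11 markers of alpha, delta and PP cells, the other endocrine cells, had a negative difference in the beta-cell line, 4 of them at an unadjusted p under 0.05, with a median of -0.30. Their sums there were 81170 to 81318 CPM in knockout and 99805 to 139811 CPM in control females, and 36955 to 41202 CPM in knockout and 49520 to 51088 CPM in control males. They thus did not overlap between the genotypes within a sex, beside the differences of S100a1, Spock2 and Trp53 in the same mice. In the whole-body line 0 of the 11 had an unadjusted p under 0.05, and the median was -0.11. With the acinar level as a covariate in the whole-body fit, Spock2 was at -0.22, S100a1 at 0.34, Tcf24 at 0.54, Gdf11 at 0.80 and Trp53 at -0.40, and Tcf24 was not called. In the fit of the beta-cell line the same covariate left S100a1 at 0.51 and Spock2 at -0.36. The part of other cell types in the results was not tested further.

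The comparison of males with females, which took no part in the choice of the genes, gave 1 call among the members, Tcf24. Its level in the whole-body line rose in males over females by a log2 difference of 1.08 (SE 0.0812, edgeR adjusted p = 0.000141), 2.11-fold, where 1037 of 18359 genes (5.65%) were called. All 6 males, at 46.6 to 69.8 CPM, were above all 6 females, at 19.2 to 40.3 CPM, a pattern of 633 genes (3.45%). The difference was 1.24 in controls (SE 0.116, adjusted p = 0.00106), where 105 genes (0.572%) were called. In knockouts it was 0.91 (SE 0.114, adjusted p = 0.0134), where 42 genes (0.229%) were called. Over 7 other ways of fitting the whole-body difference lay between 1.03 and 1.09, with adjusted p from 3.2e-35 to 0.00489, and Tcf24 was called in 12 of 12 fits without 1 library.

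The male minus female difference of Tcf24 in the beta-cell line was 1.15 with a wide error (SE 0.488, adjusted p = 0.373). Males had 25.9 to 62.4 CPM and females 10.1 to 26.8 CPM, and the sexes overlapped. Few genes passed in this line: 17 of 16284 (0.104%) were called and 2323 (14.3%) had an unadjusted p under 0.05. In both lines beta cell markers also summed higher in males: 252614 to 321435 CPM against 164731 to 250430 CPM in whole-body females, and 238053 to 316705 CPM against 185899 to 231255 CPM in the beta-cell line. The part of these markers in the difference of Tcf24 was not tested.

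Trp53 was lower in males of the beta-cell line, at 16.5 to 20.5 CPM, than in females, at 22.2 to 28.8 CPM, with no overlap between the sexes. The share of all genes with this pattern is not given here, and 14.3% of genes had an unadjusted edgeR p under 0.05 for sex in this line. The log2 difference was -0.45 (SE 0.0894, unadjusted p = 0.00123) and missed the threshold in the edgeR fit (adjusted p = 0.150). DESeq2 called it (adjusted p = 0.00437), and so did edgeR with same-numbered mice as a block (adjusted p = 0.0316), though that fit leaves the spread between pairs out of the error of a sex comparison. The same difference of Trp53 in the whole-body line was 0.06 (SE 0.108, adjusted p = 0.772), the mean of 0.36 (SE 0.153) in controls and -0.24 (SE 0.152) in knockouts. Markers of alpha, delta and PP cells summed to 81170 to 139811 CPM in females and 36955 to 51088 CPM in males of the beta-cell line. Their part in the difference of Trp53 was not tested.

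Gdf11, S100a1 and Spock2 were not called for sex in either line. Gdf11 was 0.62 higher in males of the beta-cell line (SE 0.202, adjusted p = 0.250) and differed by 0.08 (SE 0.148) in the whole-body line. S100a1 differed by 0.21 (SE 0.204) and 0.19 (SE 0.0878), and Spock2 by 0.13 (SE 0.0846) and 0.30 (SE 0.130), the whole-body value first. A comparison of the sex effect between lines, added after these values were seen, called 5 of 16284 genes (0.0307%) and no member. Trp53 gave -0.49 for the beta-cell minus the whole-body line (SE 0.155, adjusted p = 0.140) and Gdf11 gave 0.56 (SE 0.230, adjusted p = 0.235). Line and batch cannot be told apart in this comparison.

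**Figure D4:**
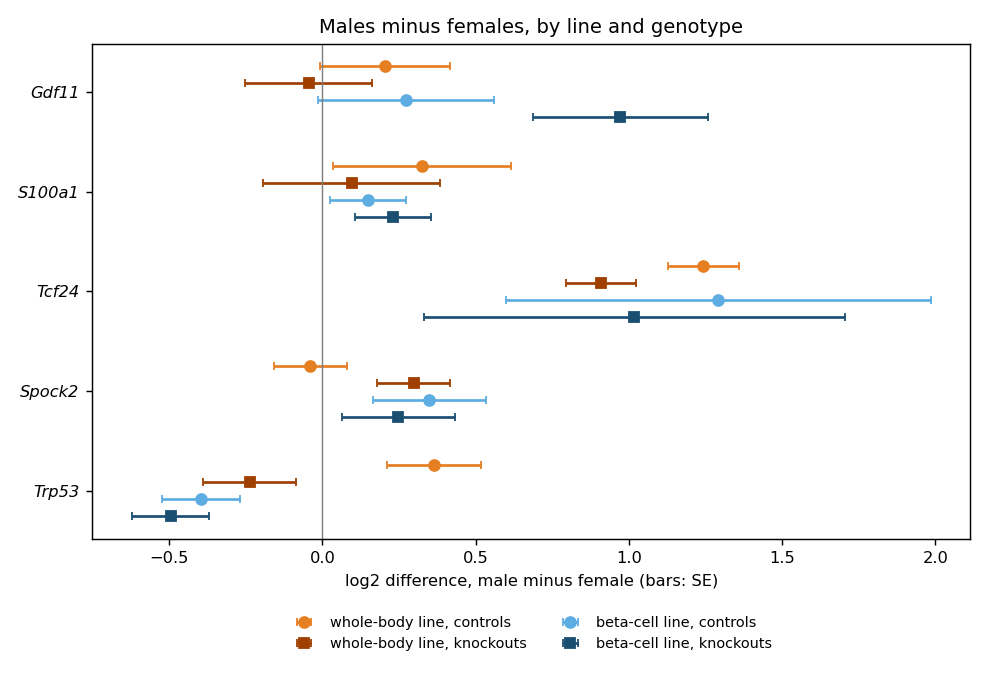
Log2 difference of males minus females for each gene, by line and genotype, with bars for the standard error of the edgeR fit. Tcf24 lies above 0 in all 4 comparisons, with narrow bars in the whole-body line, and Trp53 lies below 0 in both genotypes of the beta-cell line and in whole-body knockouts, at -0.24, but at 0.36 in whole-body controls.

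The knockout effect was not shown to differ between males and females for any member. Calls of edgeR for this difference were 0 of 18359 genes (0%) in the whole-body fit and 0 of 16284 (0%) in the other. Unadjusted, 2000 genes (10.9%) and 212 genes (1.3%) had a p under 0.05, limma-voom called 0 in both, and DESeq2 called 472 and 7. After Trp53, the smallest unadjusted p among members in the whole-body line was that of Tcf24 (-0.33, SE 0.161, unadjusted p = 0.0615, adjusted p = 0.483), whose difference was 0.79 in females and 0.46 in males. Spock2 followed at 0.34 (SE 0.169, adjusted p = 0.506). Among the members in the beta-cell line the smallest unadjusted edgeR p of this test was 0.123, for Gdf11. The test uses the knockout-against-control values that chose the genes, so it is not independent of the choice.

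The genes next to the members did not pass the test in either line. S100a13, a calcium-binding protein gene whose start faces that of S100a1 across the 42 bases shown, differed by 0.31 (SE 0.214, edgeR adjusted p = 0.872) and 0.06 (SE 0.105, adjusted p = 1.00), whole-body value first here and below. Chtop, on the other side of S100a1, differed by 0.10 (SE 0.0624) and 0.06 (SE 0.0632). Wrap53, which codes for a telomerase-associated protein and starts 103 bases from Trp53, differed by 0.09 (SE 0.0932, adjusted p = 0.873) and by -0.12 (SE 0.0869, adjusted p = 1.00). In both pairs the difference between partner and member was not tested.

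E330040D14Rik, which overlaps Tcf24 on the opposite strand, was at 0.591 CPM in whole-body controls and 0.689 CPM in knockouts, against 34.8 and 51.5 CPM for Tcf24. It differed by 0.20 (SE 0.200). Ppp1r42, 692 bases from Tcf24 on the same strand, differed by 0.24 (SE 0.158) and -0.02 (SE 0.353). Sarnp and Cd63 beside Gdf11 differed by 0.19 and 0.01 among whole-body mice and by -0.13 and 0.11 in the beta-cell line. Ascc1 beside Spock2 differed by 0.03 and -0.12. Mir6906, a miRNA gene inside Spock2, was at 0 in all whole-body libraries.

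Other genes of the pathways of the 5 members were followed in 5 lists without the members themselves. No list gene was called by edgeR or limma-voom in either line. Of 172 list genes tested among whole-body mice, 8 were higher and 12 lower in knockouts with an unadjusted p under 0.05 (11.6%, against 5.9% of all genes). For the beta-cell line these were 5 and 2 of 157 (4.46%, against 3.65%). The counts per list below use the same unadjusted threshold and are not calls. DESeq2 called Smoc1, Pcsk6 and Spock1 in the whole-body line and none in the beta-cell line, and edgeR without control female 3 of the whole-body line called Atm.

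In GDF and activin signalling, the pathway of Gdf11, 0 genes were higher and 4 lower of 44 in whole-body knockouts, with a median log2 difference of -0.03 against 0.02 over all genes. The lower ones included Pcsk6 (-0.25, SE 0.0723, adjusted p = 0.621) and Bmp1 (-0.17, SE 0.0660, adjusted p = 0.782), both proteases that process TGF-beta family members. The ligand genes Inhba and Tgfb2 were at 0.47 (SE 0.307) and 0.29 (SE 0.180). For beta-cell knockouts 2 were higher and 1 lower of 42, with a median of 0.03 against 0.00 over all genes. Skil, a repressor of SMAD activity, was at 0.28 (SE 0.0964), the co-receptor gene Tgfbr3 at 0.25 (SE 0.0944) and Fstl3, a secreted inhibitor that binds GDF11 and activins, at -0.46 (SE 0.193). The inhibin subunit gene Inha was at -0.29 (SE 0.164).

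In the p53 pathway 2 genes were higher and 2 lower of 47 in whole-body knockouts, and 3 were higher and 0 lower of 46 in beta-cell knockouts. The medians were 0.00 and 0.08. The kinases upstream of p53, Atm and Atr, were at -0.62 (SE 0.211) and -0.25 (SE 0.102) in the whole-body line, with edgeR adjusted p of 0.676 and 0.796. Atm was at 18.8 ± 1.84 CPM in knockouts and 30.7 ± 16.6 CPM in controls, and its difference was -1.12 in females and -0.13 in males. The p53 targets Gadd45a and Ei24 were at 0.33 (SE 0.129) and 0.13 (SE 0.0561). In beta-cell knockouts Mdm4, an inhibitor of p53, was at 0.21 (SE 0.0769) and the target Tigar at 0.29 (SE 0.107). The apoptosis genes Bbc3 and Bax, also p53 targets, were at -0.48 (SE 0.298) and -0.10 (SE 0.0696).

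Among S100 proteins and calcium stores, 2 were higher and 4 lower of 27 in whole-body knockouts, and 0 of 20 in either direction in beta-cell knockouts. The medians were 0.08 and -0.01. Atp2a3, a SERCA calcium pump, was at -0.23 (SE 0.0912, adjusted p = 0.786) and Calm2, a calmodulin gene, at 0.25 (SE 0.101, adjusted p = 0.786) in the whole-body line. S100a14 and S100a9 had large differences, 2.61 and -2.32, at means under 1 CPM in both groups. Among beta-cell line values, Itpr2, an IP3 receptor of calcium stores, was at 0.56 (SE 0.260), Calm3 at -0.18 (SE 0.0824) and S100a10 at -0.22 (SE 0.115). S100pbp was at 0.17 (SE 0.115).

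Among testicans and matrix proteoglycans, 4 were higher and 1 lower of 34 in whole-body knockouts, and 0 and 1 of 33 in beta-cell knockouts, with medians of 0.09 and -0.04. SPARC family relatives of Spock2 had the smallest p. Smoc1 was at 10.1 ± 3.83 CPM in whole-body knockouts and 5.33 ± 1.34 CPM in controls, a log2 difference of 0.85 (SE 0.154, adjusted p = 0.206; DESeq2 adjusted p = 0.000181). Spock1, the testican-1 gene, was at 0.38 (SE 0.0932, adjusted p = 0.524; DESeq2 adjusted p = 0.0285), opposite in sign to Spock2. Mmp16, a membrane-type metalloproteinase, was at -0.59 (SE 0.199) and the syndecan gene Sdc4 at -0.20 (SE 0.140). Spock3 in the beta-cell line was at -0.49 (SE 0.151, adjusted p = 1.00), with -0.90 in females and -0.08 in males. The metalloproteinase gene Mmp15 was at -0.35 (SE 0.169), Sdc3 at 0.32 (SE 0.162) and Ctsl, a lysosomal protease, at 0.12 (SE 0.0780).

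Among class II bHLH factors and partners, the family of Tcf24, 0 were higher and 1 lower of 21 in whole-body knockouts, and 0 of 17 in either direction in beta-cell knockouts. The medians were 0.23 and -0.05. The lower gene was Ptf1a, an acinar fate factor, at -2.77 (SE 0.918, adjusted p = 0.676) with 0.384 CPM in controls. Ptf1a is itself among the acinar markers given above. The others differed in the same direction, and the part of acinar cells was not tested. Id4 and Atoh8 were at 0.35 (SE 0.177) and 0.36 (SE 0.198), and Neurod1, an islet differentiation factor, at -0.25 (SE 0.182). For the beta-cell line Ptf1a was at 0.95 (SE 0.755), Neurog3 at 0.11 (SE 0.130) and Tal1 at -0.71 (SE 0.307), all with an adjusted p of 1.00.

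**Figure D5:**
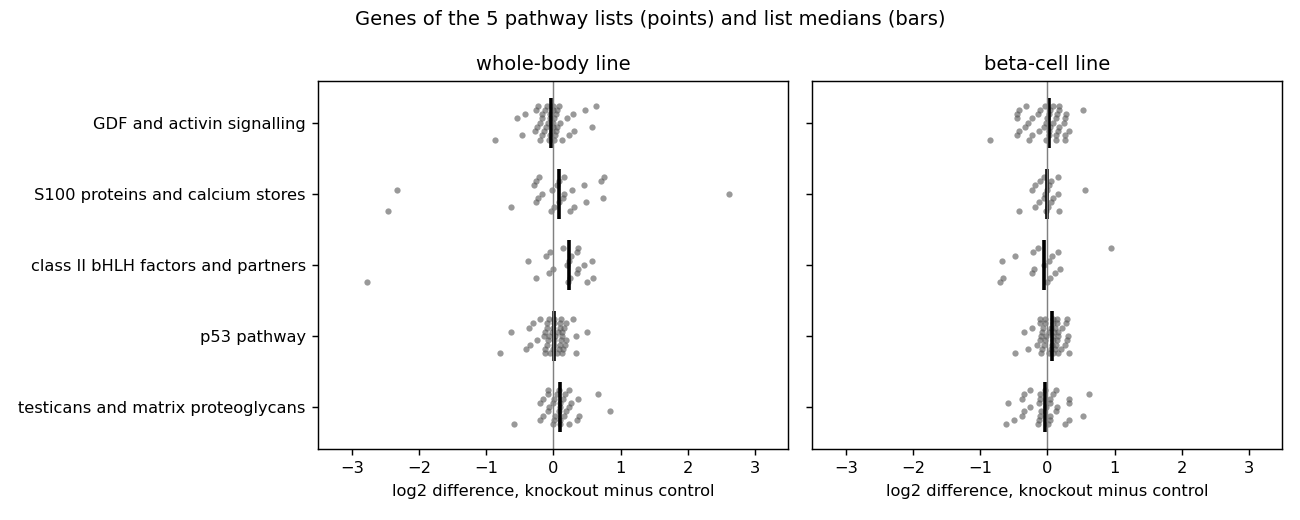
Log2 difference of knockout minus control (mean of both sexes) for the genes of each pathway list, 1 point per gene, with list medians as black bars; members themselves are left out and vertical scatter is only for visibility. The medians lie between -0.05 and 0.23, and Ptf1a at -2.77 and S100a14 at 2.61 in the whole-body line are genes with mean levels under 1 CPM.

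Genes whose level followed a member most closely were ranked by the smaller of 2 Pearson correlations of log2 CPM, over the 12 whole-body and the 8 beta-cell libraries, among 16214 genes. The libraries of a line share groups, sexes and depth, so these correlations are a description. Tcf24 had the closest companions: Etv5, an ETS-family transcription factor gene, at 0.95 and 0.94, Tafa1 at 0.92 and 0.96, and Dapl1 at 0.94 and 0.91, with 193 genes above 0.7 in both lines. S100a1 was followed by Gm45592 (0.94 and 0.90), Mapkapk5, a protein kinase gene (0.92 and 0.88), and Tgds (0.88 and 0.86), with 66 genes above 0.7. Spock2 was followed by Trp53inp2 (0.83 and 0.86), Ildr1 (0.84 and 0.81) and the calcium pump gene Atp2a3 (0.83 and 0.81), with 54 genes. For Gdf11 the closest was Nras, a RAS GTPase gene (0.88 and 0.86), then Rccd1 and Hddc3, both on chromosome 7, with 8 genes above 0.7. Trp53 had 1 such gene, Cd83 (0.79 and 0.87), a surface protein gene of immune cells. Next were Cend1 (0.69 and 0.71), which is also on chromosome 7, and Ngfr (0.82 and 0.68).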

How the data were processed

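The authors deposited 4 tables, 1 per line and sex, of RSEM expected counts per gene, which were already whole numbers without any scaling to depth. STAR 2.5.3a, RSEM 1.3.0 and mm10 are named in the submitters' processing notes. The annotation, the strand setting, the use of the molecular identifiers in the adapters, and the rule by which the beta-cell tables lack genes of low count are not given in the sources used here. The labels call the libraries of a group biological replicates.

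The 5 genes, the pathway and marker lists and the tests were chosen with earlier results of these data known. Named list genes are the 2 with the smallest p per direction, list and line, of which 1 is not reported here. Neighbours come from GENCODE M21, and 3 genes of like pattern were named per member (log2 CPM with a prior count of 2).

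Counts of each line were joined on gene identifiers, filtered with filterByExpr, scaled by TMM and fitted with the quasi-likelihood test of edgeR 4.0.16 (robust, R 4.3.3), 1 mean per group, on 12 libraries and 18359 genes or 8 libraries and 16284 genes. The adjusted p and SE printed are from this edgeR fit unless another tool is named, and were adjusted by Benjamini-Hochberg over all genes tested. The scripts were tested on simulated counts. DESeq2 1.42.0, limma-voom (limma 3.58.1), RLE scaling, no filter, age, acinar level, a replicate block and leaving out each library were alternatives.

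The replicate numbers pair the mice of the beta-cell line: ages match, and over genes the deviations of same-numbered mice from the mean of their group had a correlation of 0.22 (females) and 0.39 (males). Correlations of same-numbered mice in the whole-body line ran from -0.23 to 0.17 and their ages mostly differed, so the numbers there were not taken as pairs.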

Additional observations from a re-analysis of the deposited data

How the results depend on the processing

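The mean knockout difference of Gdf11, S100a1, Spock2 and Trp53 kept its sign in both lines under the 7 alternatives and in every fit without 1 library, and so did that of Tcf24 in the whole-body line. Spock2 of the whole-body line moved from -0.39 to -0.22 with the acinar level as a covariate. Tcf24 of the beta-cell line was at 0.10 with limma-voom. Whole-body knockout calls were 197 with DESeq2, 0 with the replicate block, 1 with the acinar covariate and 2 to 11 without 1 library. Whole-body sex calls were 2660, 255 and 2061 in the same order of settings, 616 with age and 308 to 1656 without 1 library. Whole-body calls for the sex difference of the knockout effect were 472 with DESeq2, 1 with the replicate block and 0 to 3 without 1 library. For the beta-cell line, knockout calls were 38 with DESeq2 and 0 to 4 without 1 library, sex calls 710 with DESeq2, 766 with the replicate block and 0 to 24 without 1 library, and calls for the difference of the effects 7 with DESeq2 and 0 to 1 without 1 library. The cause was not tested, except that a block within sex takes the spread between pairs out of the error of a sex comparison. The block changed no other call of a member beyond those of Tcf24 for the knockout in the whole-body line, which it lost (adjusted p = 0.176), and Trp53 for sex. In the whole-body line the block rests on replicate numbers that were not taken as pairs. Without 1 library, some values near 0 changed sign. The sex difference of the knockout effect ran from -0.61 to 0.030 for S100a1 in the whole-body line. In the beta-cell line it ran from -0.043 to 0.18 for S100a1, from -1.11 to 0.52 for Tcf24, from -0.35 to 0.14 for Spock2 and from -0.22 to 0.0056 for Trp53. The male minus female difference of Trp53 in the whole-body line ran from -0.024 to 0.15. None of these was called. Where a group of the beta-cell line was left with 1 mouse, that mouse was assumed to vary like the others. With 2 or 3 mice per group, and few reads of Gdf11, small differences were not detectable.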
